A study of Mus musculus with 6 samples.

Results

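The 40 genes described here encode the proteins that mark replication origins, load and activate the replicative helicase, and copy DNA at the fork. They were taken from the table by gene symbol, not by any measured value. All 40 were listed among the 24906 genes of the table, and all 40 passed the filter on low values. The study sequenced RNA of whole spleen cells from 6 mice, each giving 1 library, on the C57BL/6J background and at 12 to 16 months of age. In the 3 D3TA mice, CRISPR/Cas9 had been used to edit Ccnd3, which encodes cyclin D3, so that alanine replaces threonine 283 (T283A). Such mice have advanced myeloproliferative neoplasm at this age. The knock-in line was bred as heterozygotes, and the edit is not limited to one tissue by a promoter or Cre. The 3 WT mice were age-matched wild types. The comparison asks how the transcriptome of the diseased spleen differs from that of WT spleen, here for the genes of DNA replication. Because whole spleen was measured, more cells of a replicating type and more of these transcripts per cell cannot be told apart.

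DNA is copied once per cell cycle because origins are prepared and fired in separate steps. In G1, the origin recognition complex (ORC), Cdc6 and Cdt1 load the ring-shaped MCM2-7 helicase onto DNA, and geminin (Gmnn) blocks Cdt1 outside G1. In S phase, Cdc45 and the GINS complex join MCM2-7 to form the active helicase, and polymerase alpha with primase, polymerases delta and epsilon, the PCNA clamp with its RFC loader, the flap nuclease Fen1, DNA ligase 1 and the single-strand binding protein RPA copy both strands. Many of these genes are textbook targets of E2F transcription factors, which the retinoblastoma protein holds back until cyclin D and CDK4 or CDK6 phosphorylate it. In the spleen, cycling cells are mainly red cell precursors, activated lymphocytes and, in myeloproliferative disease, myeloid precursors.

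The libraries held between 14944622 and 19456838 reads assigned to genes. Values are normalized counts, that is, reads divided by a size factor for each library, and 3 reads correspond to 2.59 to 3.36 normalized counts. That limit covers counting error alone, because without molecular identifiers reads of 1 molecule cannot be told from reads of several. Values of a group are given in the order of its libraries, 1 to 3. B cell and T cell markers of spleen were present in every library, and none of their 16 genes was at 0 in any of them. Several properties split the libraries across genotypes. D3TA-1, D3TA-2 and WT-3 had 6.39% to 6.76% of reads in hemoglobin genes, and the other 3 libraries 1.40% to 1.91%. Reads of Y-linked genes were found in D3TA-3 and WT-1, with at most 18 reads of them in any other library. WT-2 stood apart on the first principal component (42.0% of the variance) and had the most genes at 0, namely 8449. WT-3 had lower values for genes with long coding sequences and higher values for genes with short ones, as described with the last results.

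Transcripts of the replication machinery were higher in D3TA spleens for nearly all members, and most so in D3TA-1. Of the 40 members, 39 had a log2 difference (D3TA minus WT) above 0, against 54.5% of the 15564 genes tested. The median log2 difference of the members was 0.72, against 0.060 for all genes tested. No member passed limma at an adjusted p of 0.05, and the share called among all genes was 0.0%. Adjusted p-values of the members ranged from 0.294 to 0.922. At an unadjusted p under 0.05, limma gave 13 members higher in D3TA and 0 lower, against 6.08% of all genes higher. That count was 4 without D3TA-1 (2.92% of all genes), 6 without WT-1 (6.35%), 5 without WT-2 (4.65%) and 22 without D3TA-3 (9.46%). On recovered reads, edgeR and limma-voom also called 0 members. DESeq2 called 2, Cdc6 (adjusted p = 0.0211) and Orc1 (adjusted p = 0.0401), against 1.83% of its 18588 genes called higher. Over the 23 alternatives, adjusted p-values reached from 0.0211 to 0.998 for Cdc6 and from 0.0333 to 0.9995 for Orc1.

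**Figure D1:**
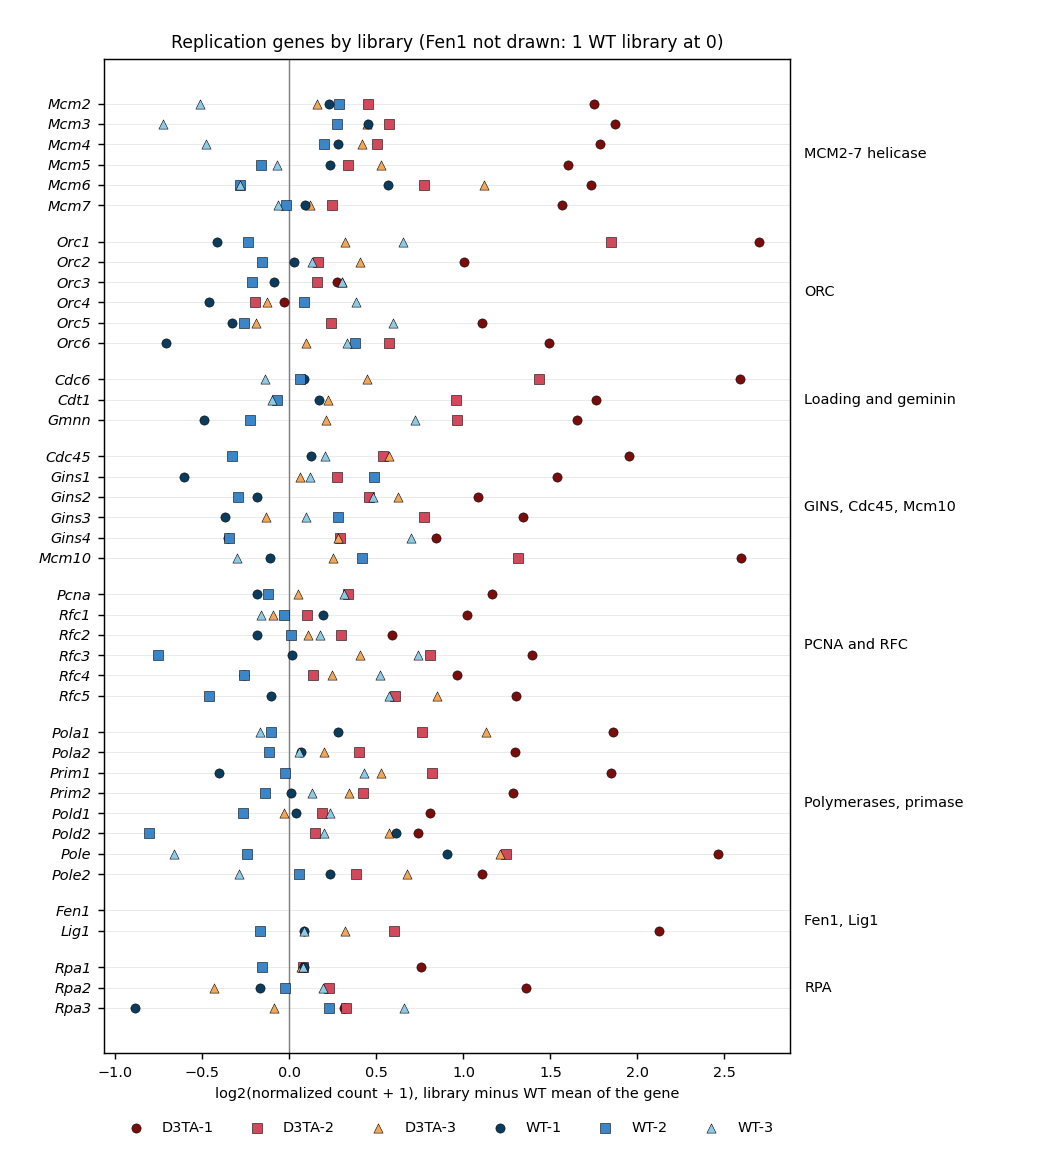
The plot of replication genes by library shows, for 39 of the 40 genes, log2(normalized count + 1) in each library minus the mean of the 3 WT libraries for that gene, with D3TA libraries in red tones, WT libraries in blue tones, and genes grouped by role. D3TA-1 is the rightmost point for 36 of 40 genes. D3TA-2 and D3TA-3 both lie right of every WT library for 16 of 40 genes, and for the others at least 1 of them does not. Fen1, which was at 0 in WT-2, is not drawn.

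The per-library values show the same order without a model. In 16 of 40 members every D3TA library was above every WT library, against 8.18% of all genes tested, and in 0 members every D3TA library was below. D3TA-1 was the highest of the 6 libraries for 36 members, against 26.9% of all genes. Relative to the WT mean of each gene, the median member was 1.38 higher on the log2 scale in D3TA-1, 0.44 higher in D3TA-2 and 0.29 higher in D3TA-3. D3TA-2 and D3TA-3 both exceeded every WT library in the same 16 members, against 11.1% of all genes. That count contains the one over all D3TA libraries and so could not be lower. Without D3TA-1 the median log2 difference of the members was 0.37, with 38 of 40 above 0. Without D3TA-3, limma called 3 members, Cdc6 (adjusted p = 0.0255), Orc1 (adjusted p = 0.0333) and Mcm10 (adjusted p = 0.0397), against 1.59% of all genes called higher. The members above every WT library then numbered 27, against 18.1% of all genes, and 26 without WT-3, against 15.2%.

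**Figure D2:**
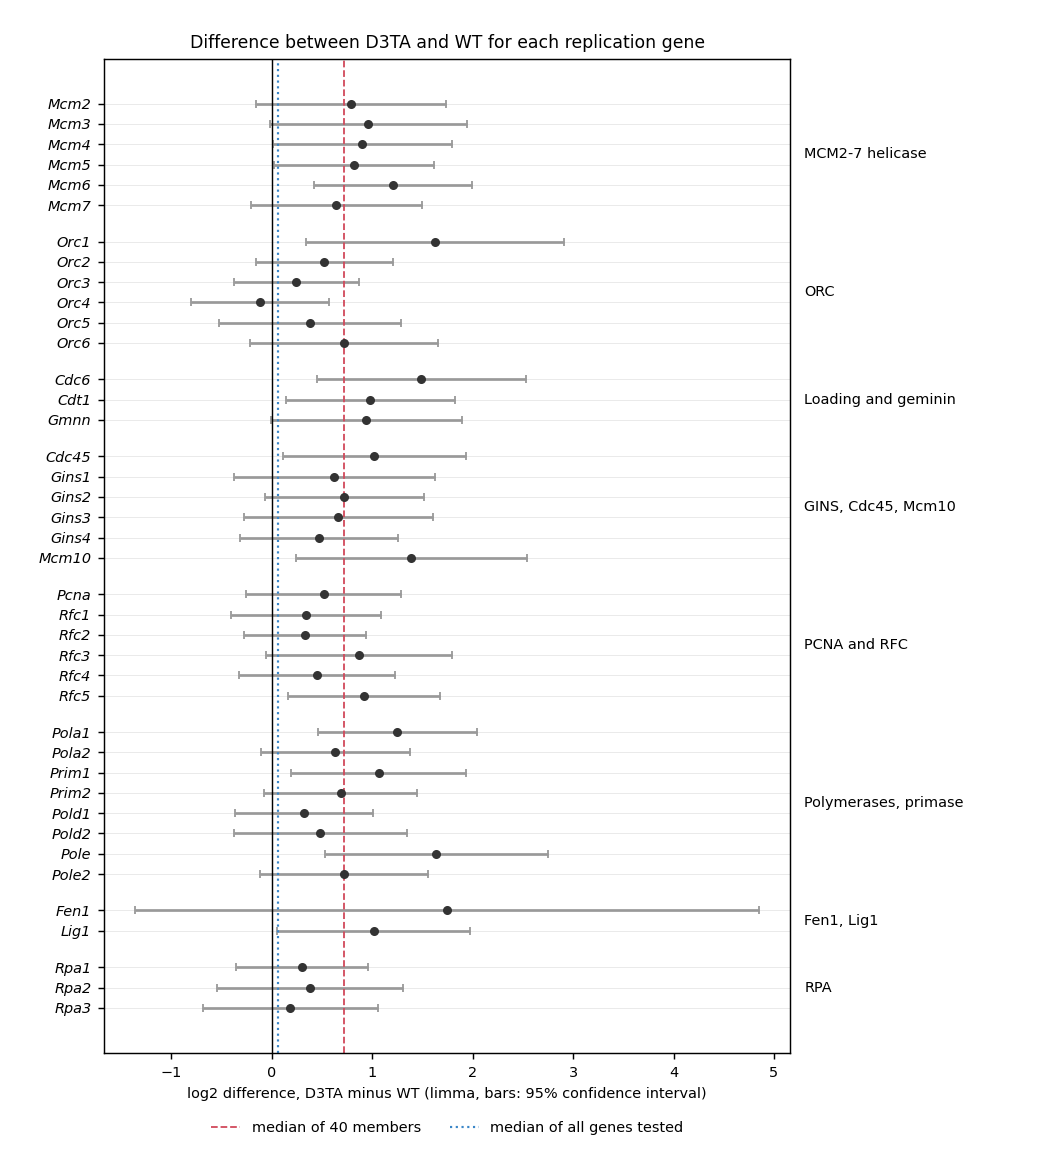
The plot of differences gives limma's log2 difference (D3TA minus WT) of each of the 40 genes as a point with its 95% confidence interval, grouped by role. The dashed line marks the median of the 40 members (0.72), the dotted line the median of all genes tested (0.060), and Orc4 is the one gene whose point lies below 0.

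Promoter sequence was examined because E2F factors act on many of these genes. RefSeq windows on GRCm38.p6 were at hand for 32 of the 40 members and were searched over the 250 bases before the annotated start. An exact match to an E2F motif (TTTCCCGC, TTTCGCGC, TTTGCCGC or TTTGGCGC, on either strand) was present in 9 of the 32 members, or 28.1%, against 2.16% of the 27025 genes with a window. The 9 were Cdc6, Gins3, Mcm5, Mcm6, Mcm7, Orc1, Orc3, Pola1 and Rfc3. CCAAT, on either strand, was present in 65.6% of the 32 members and in 37.5% of all genes. The cell cycle homology region motif (TTTGAA or TTCGAA, on either strand) was present in 21.9% of members and 19.6% of all genes. The members with an E2F match had a median log2 difference of 0.87 (range 0.24 to 1.62, 9 genes), and those without one a median of 0.63 (range -0.12 to 1.75, 23 genes). The 1.75 is that of Fen1, whose difference rests on a value of 0 in WT-2, and the next highest without a match was Mcm10 at 1.39. The ranges overlap with or without Fen1, and no test was made on groups of members. Shown here are the 160 bases before the start of 3 members with larger differences, from the helicase, its loader and the polymerase that starts each strand, and of Orc3, which holds a match and had a small difference. Capitals mark E2F matches, and RefSeq also annotates starts upstream of the one used for Cdc6, Pola1 and Orc3.
Mcm6 (chr1:128359706-128359865, minus strand): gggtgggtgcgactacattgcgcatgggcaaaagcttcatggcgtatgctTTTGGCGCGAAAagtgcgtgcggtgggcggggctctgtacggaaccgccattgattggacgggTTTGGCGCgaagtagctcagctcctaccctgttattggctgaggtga
Cdc6 (chr11:98907991-98908150, plus strand): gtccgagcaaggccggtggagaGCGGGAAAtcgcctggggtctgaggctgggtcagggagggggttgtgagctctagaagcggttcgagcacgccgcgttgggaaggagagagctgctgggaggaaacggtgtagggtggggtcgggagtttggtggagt
Pola1 (chrX:93632156-93632315, minus strand): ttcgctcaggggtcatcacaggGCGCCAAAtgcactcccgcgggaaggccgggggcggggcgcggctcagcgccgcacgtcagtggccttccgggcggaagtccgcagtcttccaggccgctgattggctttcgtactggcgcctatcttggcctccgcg
Orc3 (chr4:34614943-34615102, minus strand): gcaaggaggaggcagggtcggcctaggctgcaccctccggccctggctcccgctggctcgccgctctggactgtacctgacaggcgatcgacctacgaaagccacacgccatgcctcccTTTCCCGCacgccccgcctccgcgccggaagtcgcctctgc
Mcm6 holds 3 matches, of which 2, on opposite strands, overlap in a single run of capitals 110 to 99 bases before the start. The third lies 47 to 40 bases before it. Cdc6 and Pola1 each hold 1 match, in both genes 138 to 131 bases before the start, with different letters. In Orc3 the match lies 41 to 34 bases before the start. A match describes these letters only and does not show that E2F binds there.

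MCM2-7, the motor of the replication fork, is a ring of 6 different subunits. All 6 genes were higher in D3TA by the fitted difference (median 0.86), in 4 of the 6 every D3TA library was above every WT library, and none passed the test. Mcm6 (ENSMUSG00000026355, chromosome 1, 128331590 to 128359664, GRCm38) had the largest difference of the 6. Mcm6 had 5262, 2707 and 3442 normalized counts in the D3TA libraries, against 2346, 1304 and 1302 in the WT libraries. Its 3 D3TA libraries were all above its WT libraries, with D3TA-1 highest and D3TA-3 second. Its mean was 3804 ± 1315 (SD, n = 3) in D3TA spleens and 1651 ± 602 (SD, n = 3) in WT spleens, with a log2 difference of 1.21 ± 0.35 (SE; 95% interval 0.42 to 1.99) and a limma adjusted p of 0.308.

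The other 5 helicase subunits had the same high library and smaller gaps between the remaining ones. Mcm4, a subunit of the ring's catalytic core with Mcm6 and Mcm7, had 4546, 1871 and 1763 normalized counts in the D3TA libraries, against 1604, 1513 and 948 in the WT libraries. Mcm5, which forms the gate of the ring with Mcm2, had 4885, 2034 and 2317 normalized counts in the D3TA libraries, against 1898, 1437 and 1535 in the WT libraries. Mcm7 had 6055, 2427 and 2219 normalized counts in the D3TA libraries, against 2173, 2013 and 1953 in the WT libraries. In these 3 genes the D3TA and WT libraries did not overlap, but D3TA-3 exceeded the highest WT library of Mcm7 by little. Mcm2 had 5813, 2360.5 and 1928 normalized counts in the D3TA libraries, against 2021, 2109.6 and 1213 in the WT libraries, and there D3TA-3 was below both WT-1 and WT-2. Mcm3 had 6256, 2535 and 2324 normalized counts in the D3TA libraries, against 2336, 2068 and 1031 in the WT libraries, and there D3TA-3 was just below WT-1. The log2 differences were 0.78 ± 0.43 for Mcm2, 0.96 ± 0.44 for Mcm3, 0.90 ± 0.40 for Mcm4, 0.82 ± 0.36 for Mcm5 and 0.64 ± 0.38 for Mcm7 (SE), with limma adjusted p of 0.589, 0.514, 0.502, 0.492 and 0.633.

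Levels per kb of merged exon set the subunits side by side, though the order of subunits depends on the annotated exon length. Summed over the 6 subunits, MCM2-7 reached 7489, 3174 and 3207 normalized counts per kb in D3TA-1 to D3TA-3, against 2829, 2370 and 1818 in WT-1 to WT-3. The 2 lower D3TA libraries were thus nearly equal to each other and above the 3 WT libraries. Within a library, the highest subunit was between 1.97 and 2.66 times the lowest per kb, and the lowest of these ratios was in WT-2 and the highest in D3TA-3. Mcm2 was the lowest of the 6 per kb of merged exon in mean level, at 484 in D3TA and 256 in WT. Mcm3 was the highest, at 987 in D3TA and 483 in WT. Merged exons cover 6956 bases for Mcm2 and 3752 for Mcm3, while their coding lengths are 2712 and 2436 bases. This order therefore does not show which subunit has more transcripts.

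**Figure D3:**
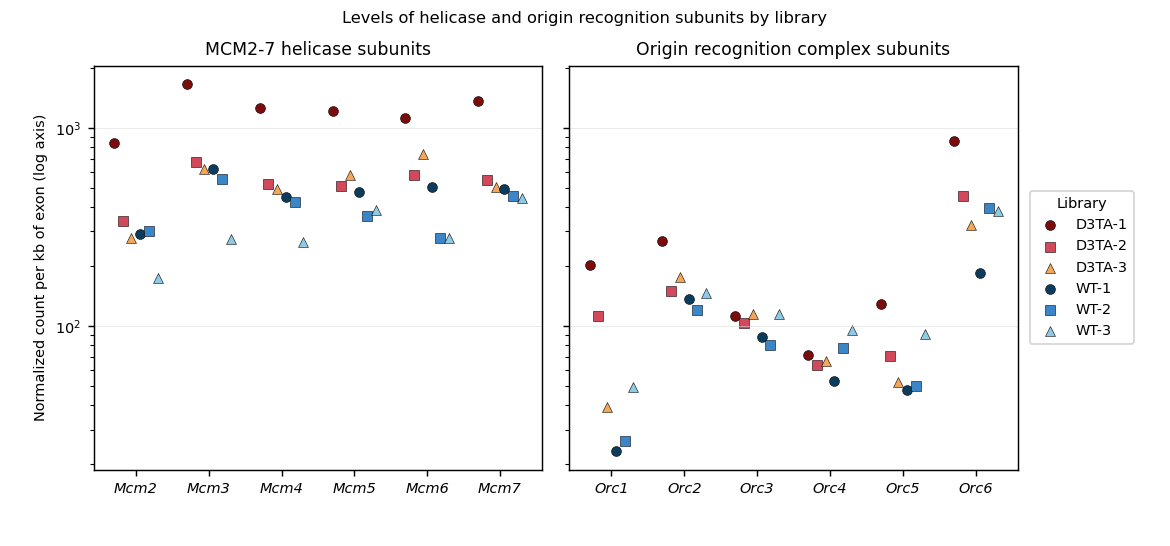
The plot of helicase and origin recognition subunits shows the level of each gene as normalized counts per kb of exon on a log axis, with 1 point per library and the D3TA libraries left of the WT libraries. D3TA-1 stands above the other libraries for all MCM2-7 subunits, while the libraries of Orc3 and Orc4 lie close together and Orc1 spreads most.

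ORC binds origins and is the platform on which the helicase is loaded. Its subunits differed in how they varied. Orc1, the subunit whose protein is known to be renewed and removed within each cell cycle, had the largest difference of the complex. Orc1 (ENSMUSG00000028587, chromosome 4, 108579423 to 108614833) had 710.1, 393 and 136 normalized counts in the D3TA libraries, against 81.2, 91.8 and 171 in the WT libraries. D3TA-1 and D3TA-2 were above all WT libraries, but D3TA-3 was below WT-3. The log2 difference was 1.62 ± 0.58 (SE) and the limma adjusted p 0.406. Its 10.8% of exon bases shared with a neighbouring gene could not be separated, since no strand-marking step is described for these libraries.

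The remaining ORC genes had smaller differences. Orc6, a small subunit held loosely by the rest, had 2108, 1114 and 800.4 normalized counts in the D3TA libraries, against 459, 974 and 942 in the WT libraries, so that D3TA-3 lay below WT-2 and WT-3. The difference on the log2 scale was 0.72 ± 0.42 (SE, limma adjusted p = 0.623). Orc4, an ATP-binding subunit of the core, was the single member with a difference below 0. Orc4 had 532, 475 and 499 normalized counts in the D3TA libraries, against 395, 576 and 709 in the WT libraries, with the D3TA libraries inside the WT range. Its log2 difference was -0.12 ± 0.31 (SE; 95% interval -0.81 to 0.57; limma adjusted p = 0.922), and 0.070 without WT-3. Over Orc2 to Orc5 the median log2 difference was 0.31, with Orc2 the one gene of these 4 whose D3TA libraries were all above WT.

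Helicase and origin subunits can be compared within a library. The summed MCM2-7 level per kb was 12.9, 8.18 and 7.79 times the summed Orc2 to Orc5 level in D3TA-1 to D3TA-3, against 8.71, 7.24 and 4.07 times in WT-1 to WT-3. D3TA-1 was highest and WT-3 lowest, and the other 4 libraries overlapped between genotypes. Orc1 per kb was 1.40, 1.16 and 0.379 times the mean of Orc2 to Orc5 in D3TA-1 to D3TA-3, against 0.288, 0.322 and 0.440 times in WT-1 to WT-3. D3TA-1 and D3TA-2 were apart from the other 4 libraries in this ratio, and D3TA-3 lay within the WT range.

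Cdc6 and Cdt1 bring the helicase to ORC, and both were above every WT library in every D3TA library. Cdc6 (ENSMUSG00000017499, chromosome 11, 98907801 to 98923940) had 2092, 937 and 472 normalized counts in the D3TA libraries, against 368, 361 and 314 in the WT libraries. The WT libraries were close together, and the D3TA libraries were spread widely above them. Its mean was 1167 ± 834 (SD, n = 3) in D3TA spleens and 348 ± 29.3 (SD, n = 3) in WT spleens. The difference was 2.80-fold on the scale of log2(normalized count + 1), with a log2 difference of 1.49 ± 0.47 (SE) and a limma adjusted p of 0.353. Cdt1 (ENSMUSG00000006585, chromosome 8, 122568015 to 122573554) had 2486, 1424 and 856 normalized counts in the D3TA libraries, against 826, 698 and 682 in the WT libraries. Here too the WT libraries lay close together, below all 3 D3TA libraries. The log2 difference was 0.98 ± 0.38 (SE, limma adjusted p = 0.429).

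Geminin, the inhibitor of Cdt1 in S, G2 and M phase, varied more among WT libraries. Gmnn had 2422, 1499 and 888 normalized counts in the D3TA libraries, against 545, 657 and 1265 in the WT libraries. WT-3 was above D3TA-3, so that the groups overlapped, and the log2 difference was 0.94 ± 0.43 (SE, limma adjusted p = 0.510). Per kb, Gmnn was 2.09, 2.26 and 2.22 times Cdt1 in D3TA-1 to D3TA-3, against 1.41, 2.02 and 3.97 times in WT-1 to WT-3. The ratio was nearly the same in the 3 D3TA libraries. WT-1 and WT-2 were below all of them, and WT-3 alone was above. WT-3 had higher values for genes with short coding sequences, and the coding length is 618 bases for Gmnn and 1671 for Cdt1.

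Cdc45 and the 4 GINS subunits turn the loaded ring into the moving helicase, and Mcm10 is needed for its activation. Mcm10 (ENSMUSG00000026669, chromosome 2, 4989714 to 5012791) had 1698, 698 and 334 normalized counts in the D3TA libraries, against 259, 374 and 227 in the WT libraries. D3TA-1 and D3TA-2 were above the WT libraries, and D3TA-3 was below WT-2. The log2 difference was 1.39 ± 0.52 (SE, limma adjusted p = 0.423), and adjusted p-values over the 23 alternatives reached from 0.0397 to 0.9995. Cdc45 had 1221, 458 and 469 normalized counts in the D3TA libraries, against 344, 251 and 362 in the WT libraries. Its D3TA libraries were all above its WT libraries, with D3TA-2 and D3TA-3 nearly equal, and the log2 difference was 1.02 ± 0.41 (SE, limma adjusted p = 0.451).

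The GINS genes had a median log2 difference of 0.64, and in 0 of the 4 were all D3TA libraries above WT. Gins4 had 1114, 759 and 755 normalized counts in the D3TA libraries, against 486, 488 and 1008 in the WT libraries, and WT-3 was above both D3TA-2 and D3TA-3. On the log2 scale the difference was 0.47 ± 0.36 (SE, limma adjusted p = 0.701). Gins1, Gins2 and Gins3 had log2 differences of 0.62, 0.72 and 0.66. For Gins2, 67.3% of exon bases are shared with exons of Gse1, so its reads could not be assigned to it alone. Shared exon bases made up 29.8% of Orc2 and between 10.7% and 15.1% of Mcm7, Rfc2, Rfc4 and Rfc5.

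PCNA is the sliding clamp that holds polymerases on DNA, and RFC is the 5-subunit complex that opens and loads it. Pcna had the highest level per kb of all members, and the clamp and its loader had a median log2 difference of 0.48. Pcna had 11069.6, 6227 and 5118 normalized counts in the D3TA libraries, against 4342, 4527 and 6133 in the WT libraries, so that WT-3 was above D3TA-3, and its log2 difference was 0.52. Rfc5 had 1624, 1002 and 1183 normalized counts in the D3TA libraries, against 609, 477 and 977 in the WT libraries, and it was the single RFC gene with every D3TA library above every WT library. The fitted log2 difference was 0.92 ± 0.34 (SE, limma adjusted p = 0.419). Rfc3 had 1057, 702 and 532 normalized counts in the D3TA libraries, against 405, 237 and 671 in the WT libraries, with WT-3 above D3TA-3, and a log2 difference of 0.87 ± 0.42 (SE, limma adjusted p = 0.534). Rfc1, the large subunit, had 1959, 1038 and 903 normalized counts in the D3TA libraries, against 1104, 946 and 864 in the WT libraries, and apart from D3TA-1 the libraries of both groups overlapped. Its log2 difference was 0.34 ± 0.34 (SE, limma adjusted p = 0.770), and -0.012 without both D3TA-1 and WT-2. Rfc2 and Rfc4 had log2 differences of 0.33 and 0.45.

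Polymerase alpha with primase starts each new strand, polymerase epsilon extends the leading strand and polymerase delta the lagging strand. Of the 8 genes, 6 had every D3TA library above every WT library, and the median log2 difference was 0.70. Pola1 (ENSMUSG00000006678, chromosome X, 93304767 to 93632155), the catalytic subunit of polymerase alpha, had the smallest p of all 40 members. Pola1 had 899, 420.2 and 541 normalized counts in the D3TA libraries, against 299.9, 229 and 219 in the WT libraries, with a clear gap between the lowest D3TA library and the highest WT library. Its mean was 620.0 ± 249 (SD, n = 3) in D3TA spleens and 249.6 ± 43.9 (SD, n = 3) in WT spleens, with a log2 difference of 1.25 ± 0.36 (SE; 95% interval 0.46 to 2.04) and a limma adjusted p of 0.294. Pole (ENSMUSG00000007080, chromosome 5, 110286306 to 110337474), the catalytic subunit of polymerase epsilon, had 684, 293 and 287 normalized counts in the D3TA libraries, against 232, 104 and 77.3 in the WT libraries. The D3TA libraries were all above the WT libraries, with WT-1 close to D3TA-2 and D3TA-3, and the log2 difference was 1.64 ± 0.50 (SE, limma adjusted p = 0.330).

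The catalytic subunit of polymerase delta did not share this separation. Pold1 had 1815, 1179 and 1013 normalized counts in the D3TA libraries, against 1063, 861 and 1217 in the WT libraries, and WT-3 was above D3TA-2 and D3TA-3. Its log2 difference was 0.32 ± 0.31 (SE; 95% interval -0.37 to 1.01; limma adjusted p = 0.766), and -0.058 without both D3TA-1 and WT-2. Pold2, its accessory subunit, had a log2 difference of 0.48, and its groups overlapped too. Prim1 and Prim2, the primase subunits, had log2 differences of 1.06 and 0.69. Pola2 and Pole2, accessory subunits of polymerases alpha and epsilon, had 0.63 and 0.72. In these last 4 genes all D3TA libraries were above all WT libraries.

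Fen1 trims and Lig1 seals the fragments of the lagging strand. Lig1 (ENSMUSG00000056394, chromosome 7, 13277283 to 13311433) had 4519, 1569 and 1291 normalized counts in the D3TA libraries, against 1099, 919.9 and 1099 in the WT libraries. All 3 D3TA libraries were above the WT libraries, D3TA-1 by far, and the log2 difference was 1.01 ± 0.43 (SE, limma adjusted p = 0.479). Fen1 was listed at much lower values, with 62.1, 32.3 and 75.2 normalized counts in the D3TA libraries, against 77.4, 0 and 53.2 in the WT libraries. Of its exon bases, 84.2% are shared with exons of the overlapping gene Gm10143, which lies on the other strand and itself had 21.4, 13.1 and 8.64 normalized counts in the D3TA libraries, against 0, 0 and 1.93 in the WT libraries. The libraries of Fen1 overlapped between groups, and its log2 difference of 1.75 ± 1.40 (SE, limma adjusted p = 0.714) rests on the value of 0 in WT-2, and it was -0.26 without that library. How many reads of Fen1 were not assigned to it was not tested.

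RPA, a trimer that coats single-stranded DNA in replication and repair, had the smallest median difference of the role groups, at 0.30 on the log2 scale, and in 0 of the 3 genes were the groups separate. Rpa1 had 3971, 2484 and 2462 normalized counts in the D3TA libraries, against 2490.2, 2104 and 2479 in the WT libraries, and apart from D3TA-1 the values of both groups were nearly equal. Rpa2 had 3183, 1451 and 916 normalized counts in the D3TA libraries, against 1104, 1219 and 1416 in the WT libraries, with D3TA-3 the lowest of the 6 libraries. Rpa3 had 968, 973 and 730.4 normalized counts in the D3TA libraries, against 420.3, 911 and 1228 in the WT libraries, with WT-3 highest and WT-1 lowest. The log2 differences were 0.30 ± 0.30 for Rpa1, 0.38 ± 0.42 for Rpa2 and 0.18 ± 0.39 for Rpa3 (SE), with limma adjusted p of 0.768, 0.794 and 0.908. The direction of Rpa2 turned to -0.10 without D3TA-1, and that of Rpa3 to -0.26 without WT-1.

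A further 30 genes of origin firing, fork protection, fragment processing and polymerase accessory subunits were set beside the members. Of these, 26 had a log2 difference above 0 and 4 below, with a median of 0.75. By limma 0 passed, while 12 higher and 1 lower had an unadjusted p under 0.05, against 6.08% of all genes higher. DESeq2 called 6 of the 30 (Ticrr, Recql4, Clspn, Atad5, Wdhd1 and Dbf4), against 1.83% of its genes called higher. By edgeR and limma-voom 0 were called. Without D3TA-3, limma called 5 (Wdhd1, Atad5, Recql4, Clspn and Dbf4), against 1.59% of all genes called higher. In 12 of the 30 every D3TA library was above every WT library, against 8.18% of all genes tested.

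Of these genes, Ticrr, the scaffold that brings Cdc45 to the loaded helicase in response to cyclin-dependent kinase, had the smallest p. Ticrr had 469, 149 and 181 normalized counts in the D3TA libraries, against 71.6, 64.9 and 24.2 in the WT libraries, and all D3TA libraries were above the WT libraries. Its log2 difference was 2.25 ± 0.58 (SE, limma adjusted p = 0.247). Clspn, the fork protein claspin, had 1201, 489 and 368 normalized counts in the D3TA libraries, against 223, 212 and 101 in the WT libraries. Recql4, a helicase required for firing, had 449, 196 and 106 normalized counts in the D3TA libraries, against 51.6, 71.6 and 29.0 in the WT libraries. Dbf4, the activating subunit of the Cdc7 kinase that phosphorylates MCM2-7, had 1979, 1089 and 794 normalized counts in the D3TA libraries, against 420.3, 419.7 and 609 in the WT libraries. In all 3 the groups were separate, and the log2 differences were 1.83 ± 0.49, 2.13 ± 0.59 and 1.33 ± 0.37 (SE), with limma adjusted p of 0.269, 0.285 and 0.285.

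Top1 and Rnaseh2a, with the largest p of this set, had overlapping groups. Top1, the topoisomerase that relaxes DNA ahead of the fork, had 3020.5, 1724 and 1851 normalized counts in the D3TA libraries, against 2121, 2214 and 1095 in the WT libraries, with WT-1 and WT-2 above D3TA-2 and D3TA-3, and a log2 difference of 0.30 ± 0.36 (SE, limma adjusted p = 0.816). Rnaseh2a, the catalytic subunit of RNase H2, had 1319, 746 and 584 normalized counts in the D3TA libraries, against 691, 482 and 1046 in the WT libraries, and a log2 difference of 0.24 ± 0.39 (SE, limma adjusted p = 0.869). Pold4, the smallest subunit of polymerase delta, was picked out once its values were known, being the one gene whose D3TA libraries were all below WT. Pold4 had 707, 1988 and 1638 normalized counts in the D3TA libraries, against 2371, 3704 and 3712 in the WT libraries, a log2 difference of -1.27 ± 0.40 (SE, limma adjusted p = 0.356). Exon bases shared with other genes made up 24.6% of Pold4 and 14.7% of Rnaseh2a, and their reads could not be assigned with certainty.

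The targeted gene and proliferation markers give the context of these values. Ccnd3 had 7842, 3509 and 2424 normalized counts in the D3TA libraries, against 3086, 3064 and 2433 in the WT libraries, with D3TA-3 the lowest library, and a log2 difference of 0.51 ± 0.41 (SE, limma adjusted p = 0.713). The edit changes a codon, so counts of this gene do not check the genotype labels. Mki67, which encodes the proliferation antigen Ki-67, had 31755, 9171 and 3459 normalized counts in the D3TA libraries, against 2965, 3132 and 1122 in the WT libraries. Top2a, the topoisomerase of chromosome segregation, had 8604, 3557 and 3118 normalized counts in the D3TA libraries, against 2175, 1831 and 1017 in the WT libraries. In both, every D3TA library was above every WT library, with log2 differences of 2.20 ± 0.70 and 1.52 ± 0.43 (SE) and limma adjusted p of 0.356 and 0.294. All 10 genes of a mitosis list that includes both lay above 0, and their summed level was 13773 to 65406 normalized counts in D3TA and 8780 to 9870 in WT.

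Markers of several cell types also differed between the groups. All 8 genes of primary granule neutrophil precursors had a difference above 0, and in all 8 every D3TA library was above every WT library. Their summed level was 7734 to 49982 normalized counts in D3TA and 1226 to 2188 in WT, with Cebpe at 0 in WT-2 and no other of the 8 at 0 in any library. All 8 erythroid genes lay above 0, with summed levels of 260998 to 960057 in D3TA and 210451 to 943965 in WT, which overlap. The hemoglobin genes Hba-a1 and Hbb-bs made up most of these sums, so the sums say little of the other erythroid genes. In each of the 8 genes except Hbb-bs, D3TA-1 and D3TA-2 were above every WT library, and D3TA-3 was not. All 8 B cell genes lay below 0, with summed levels of 11018 to 34305 in D3TA and 60768 to 76335 in WT. All 8 T cell genes lay below 0 too, with 3565 to 11930 in D3TA and 9965 to 15196 in WT. Of 8 red pulp macrophage genes 1 lay above 0, with sums of 20460 to 39997 in D3TA and 31383 to 67383 in WT. Of 6 germinal centre B cell genes 4 lay above 0, with sums of 983 to 5501 in D3TA and 1522 to 1983 in WT. In the erythroid, B cell, T cell, macrophage and germinal centre lists no gene was at 0 in any library, and no gene of the 7 lists passed limma. D3TA-1, in which the replication genes were highest, also had the highest sums for mitosis, primary granule and erythroid genes. Its erythroid sum was close to that of WT-3 (960057 against 943965). D3TA-1 had the lowest sums for B cell, T cell, red pulp macrophage and germinal centre B cell genes. The part of cell composition in the differences of the replication genes was not tested.

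The size of the difference varied with the libraries that were compared. Among libraries with more than 5% hemoglobin reads, D3TA-1 and D3TA-2 against WT-3, the median log2 difference of the members was 0.72, with 35 of 40 above 0. In the other 3 libraries, D3TA-3 against WT-1 and WT-2, it was 0.37, with 36 of 40 above 0. Between D3TA-3 and WT-1, which had Y-linked reads, the median was 0.33, with 32 of 40 above 0. In the libraries without them, D3TA-1 and D3TA-2 against WT-2 and WT-3, it was 0.88, with 38 of 40 above 0. The median over all genes tested lay between 0.0094 and 0.074 in these 4 comparisons. Whether the genotype difference itself differed by either property could hardly be tested, since each split left 2 of its 4 arms with 1 library and 2 residual degrees of freedom. Interaction fits with limma called 0 genes, which in this design does not show that the differences were alike. At an unadjusted p under 0.05 they gave 4 of 40 members by hemoglobin, against 8.11% of all genes, and 0 by Y-linked reads, against 2.64%.

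Coding length was related to the members' values within libraries. In WT-3, the rank correlation between a gene's coding length and its log2 value relative to the gene's mean over the 6 libraries was -0.50 over 13438 genes and -0.68 over the 40 members. The members' values in WT-3 were lower by 0.39 on the log2 scale for each doubling of coding length (slope -0.39). Over the members the rank correlation was 0.43 in D3TA-1 and 0.56 in WT-1. For the D3TA minus WT difference it was 0.31 over the members and 0.22 over the 13438 genes. The slopes of that difference were 0.18 and 0.13 on the log2 scale per doubling of coding length. These correlations are descriptions over genes that share a library, and genes are not independent. The part of coding length in the contrasts between complexes, between polymerase subunits and between Gmnn and Cdt1 was not tested. Coding lengths of the members ran from 363 to 6849 bases, with a median of 1626. Pole, with its low value in WT-3, and Rpa3, with its high one, are at the long and short ends. With each library's trend on coding length removed, 39 of 40 members were above 0, with a median log2 difference of 0.71 and 0 called by limma. After that removal 15 members had all D3TA libraries above all WT libraries. The share over all genes was not counted after the removal, so this count has no background beside it.

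**Figure D4:**
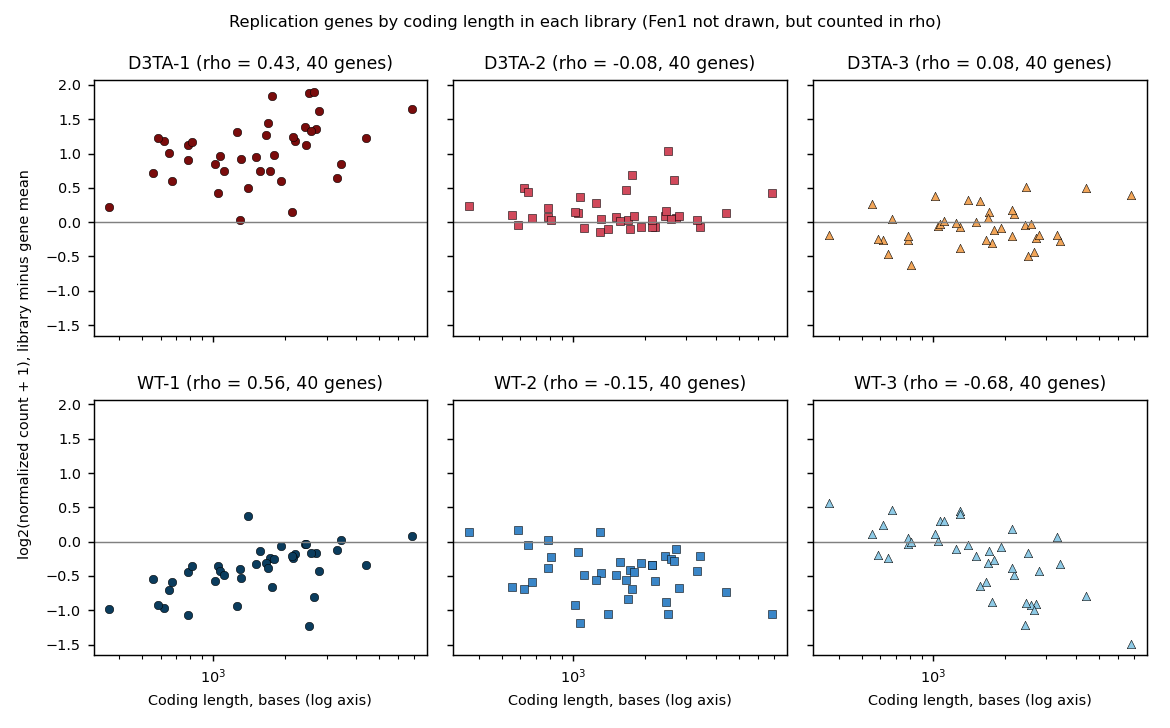
The plot of replication genes by coding length has 1 panel per library, D3TA in the upper row and WT in the lower, and shows for each gene log2(normalized count + 1) minus its mean over the 6 libraries against coding length in bases on a log axis. The points slope down in WT-3 (rank correlation -0.68) and up in WT-1 (0.56) and D3TA-1 (0.43), with little slope in the other 3 panels.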

How the data were processed

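Spleen RNA of 6 mice was measured by sequencing. Poly-T beads were used to select messenger RNA and random hexamers to prime it, per the labels' protocols, which describe no step that would mark strand. CASAVA, FastQC, Trim Galore, HISAT2, DESeq2 and the build mm10 are named in the submitters' processing notes. The counting program is not given in the sources used here. Although its title says raw counts, the deposited table holds a signal that the authors had scaled, namely whole reads multiplied by a fixed step per library (100% of 149436 values whole within 0.001 reads). The test for such values was therefore limma, and count tests on recovered reads were alternatives.

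GENCODE M21 symbols were found for 24895 of 24906 gene identifiers. The 15564 genes that reached 10 normalized counts in 3 or more libraries entered limma 3.58.1 (trend, robust) on a log2 scale with a pseudocount of 1, genotype as the factor, 2-sided, Benjamini-Hochberg over all genes tested at 0.05. Folds are 2 raised to the log2 difference, which understates the change of low genes. With 1 library per mouse and nothing said of litters or cages, p-values measure the spread between these mice. The fit was tested on simulated data. Alternatives used edgeR 4.0.16, DESeq2 1.42.0 and limma-voom, other scalings, filters, pseudocounts and terms, each library left out, and, added after the data were seen, removal of each library's trend on coding length. Levels between genes are per kb of merged exons. R 4.3.3, Python 3.11.15 and matplotlib 3.10.9 were used.

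The members, the other lists and the tests were chosen with earlier results of these data known. Values per library are given for all MCM2-7 genes, for the 2 smallest and the largest p of each other role group, for the 4 smallest and 2 largest p of the other replication genes, and for Ccnd3, Mki67 and Top2a. Pcna, Gm10143 and Pold4 were added after their values were seen.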

Additional observations from a re-analysis of the deposited data

How the results depend on the processing

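With 3 mice per group, precision is limited by the spread between mice, and among the genes given by library the depth limit of 3 reads bears on Fen1 and Gm10143. The median log2 difference of the members stayed above 0 in all 23 alternatives, from 0.36 without both D3TA-1 and WT-2 to 0.93 without D3TA-3, and leaving out single libraries gave 0.37 to 0.93. The number of members called was 0 in 21 alternatives, 2 with DESeq2, and 0 to 3 when single libraries were left out (3 without D3TA-3). The other replication genes called were 0, 6 with DESeq2, and 0 to 5 when single libraries were left out. Members above every WT library numbered 16, against 8.18% of all genes, and 16 to 27 when single libraries were left out. Leaving out a library cannot lower that count, so its lower end was fixed in advance. The 27, without D3TA-3, stood against 18.1% of all genes. Without both D3TA-1 and WT-2, 32 of 40 members were above 0, and 0 had an unadjusted p under 0.05 by limma. The shares over all genes were not counted without these libraries, so both counts have no background beside them. Over all genes, limma called 0, and 44 with no filter, 306 without D3TA-3, 15 with the term for Y-linked reads and 11 with the term for hemoglobin, while DESeq2 called 472.

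The replicate number as a block gave 0 members called and a median of 0.72. Libraries of the same number did not deviate together (correlations -0.06, -0.0046 and -0.13), so the numbers were not taken as pairs.

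Of 805 values of 35 named genes under the alternatives, 775 kept direction and side of the threshold, 15 passed it and 15 turned direction. The direction turned without both D3TA-1 and WT-2 for Rfc1 (-0.012), Pold1 (-0.058), Rpa1 (-0.0069), Fen1 (-0.37), Rpa2 (-0.12) and Rnaseh2a (-0.36), and with the term for hemoglobin for Rpa3 (-0.050) and Rnaseh2a (-0.029). When single libraries were left out, the log2 difference ran from -0.35 to 0.070 for Orc4 (highest without WT-3), from -0.26 to 2.88 for Fen1 (lowest without WT-2), from -0.10 to 0.79 for Rpa2 (lowest without D3TA-1), from -0.26 to 0.51 for Rpa3 (lowest without WT-1), from -0.026 to 0.48 for Top1 (lowest without WT-3) and from -0.091 to 0.53 for Rnaseh2a (lowest without D3TA-1, and -0.031 without WT-2). The cause was not tested.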

Other observations

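Polymerase subunits differed within their complexes. Beside Pola1 and Pole, the accessory subunits Pold3 and Pole3 had log2 differences of 0.73 and 0.61, while Pold4 and Pole4 had -1.27 and -0.45. Pole4 had 1411, 1863 and 1697 normalized counts in the D3TA libraries, against 1586, 3103 and 2331 in the WT libraries, with WT-2 and WT-3 above all D3TA libraries and WT-1 within the D3TA range. Pold3 had 1735, 1117 and 748 normalized counts in the D3TA libraries, against 696, 571 and 799 in the WT libraries, with D3TA-3 below WT-3. None of these genes passed limma, and they were chosen for description after their values were seen.

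The lowest library of a member was seldom the same one among WT mice. WT-1 was lowest for 13 members, WT-2 for 14 and WT-3 for 12, and D3TA-3 was lowest for 1, Rpa2. The highest library was D3TA-1 for 36 members, WT-3 for 2, and D3TA-3 and WT-1 for 1 each.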
